A study of Rattus norvegicus with 8 samples.

Results

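AMP-activated protein kinase and the transcription factor gene Srebf1 were followed in rat soleus, a mostly slow-twitch calf muscle, across changes in weight bearing. Of 6 genes chosen by name (Prkaa1, Prkaa2, Prkab1, Prkab2, Prkag1 and Srebf1), 5 had a probe set that the platform annotation ties to that gene alone, with 1 probe set each among 8740 on the array, which name 4736 genes singly. Prkab2 is not analysed here. All 5 passed the filter on low signal, which left 5244 probe sets for testing. Each of 8 one-colour arrays carried labelled RNA pooled from 8 to 10 female rats, so the spread and the p-values describe pools and not single animals. The walked group (2 pools) spent 12 h unable to stand on the hindlimbs and then walked on a treadmill for 2 h in total, as bouts of 30 min alternating with 30 min in the cage over 4 h. The unloaded group (3 pools) had the 12 h off the hindlimbs and nothing after it. The control group (3 pools) had 12 h of ordinary cage activity. No group here passed the further 4 h without walking. In comparisons with walked soleus, treadmill walking, cage activity and elapsed time therefore cannot be told apart. The labels give no strain or age.

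Srebf1 signal fell by 56.2% in unloaded against control soleus, and the walked pools lay between the unloaded and control pools. Prkab1, the beta scaffold gene, had its highest signals in the unloaded pools and fell in walked against unloaded soleus. That call was marginal, and most fits that left out 1 array lost it. Prkag1, the nucleotide-binding gamma gene, fell in walked against control soleus. Most fits that left out 1 array lost this call too. Its size rested on walked pool 2, with a log2 fold change of -0.48 without that pool and -1.24 without walked pool 1. The catalytic alpha genes gave no call in any comparison: Prkaa1 varied as much within groups as between them, and Prkaa2 was lowest in the walked pools but dim and noisy.

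AMP kinase is a heterotrimer of a catalytic alpha, a scaffolding beta and a regulatory gamma subunit. It is activated when AMP and ADP accumulate, as in contracting muscle, and it favours glucose uptake and fat oxidation over synthesis. Srebf1 encodes SREBP-1, a membrane-bound factor that is cut free to activate genes of fatty acid and triglyceride synthesis. In muscle its transcript is known to respond to insulin and feeding, and in liver AMP kinase is known to restrain SREBP-1.

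The DNA before the annotated starts of the 3 genes with a called change is shown for orientation, from RefSeq on build GRCr8. The array values carry no genome coordinates. Srebf1 has a distal start and an internal start, which give rise to different SREBP-1 forms, and the single probe set gives 1 value for the gene. Each run lies before the annotated gene or start, and the Prkab1 run is shorter because its gene annotation opens upstream of the listed start. Capitals mark motifs found on either strand, none of which overlaps another. The first is GGGCGG, the GC box that Sp1-type factors are known to bind. The second motif searched for was the CCAAT box, named for its own letters. The last was CANNTG, the E-box.
Srebf1 distal start, chr10:45529165-45529414, minus strand: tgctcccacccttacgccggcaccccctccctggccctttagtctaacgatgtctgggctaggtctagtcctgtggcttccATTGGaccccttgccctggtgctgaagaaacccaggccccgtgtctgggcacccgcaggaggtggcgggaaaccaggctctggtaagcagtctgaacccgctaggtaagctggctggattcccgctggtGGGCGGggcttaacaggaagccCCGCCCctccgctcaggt
Srebf1 internal start, chr10:45519011-45519260, minus strand: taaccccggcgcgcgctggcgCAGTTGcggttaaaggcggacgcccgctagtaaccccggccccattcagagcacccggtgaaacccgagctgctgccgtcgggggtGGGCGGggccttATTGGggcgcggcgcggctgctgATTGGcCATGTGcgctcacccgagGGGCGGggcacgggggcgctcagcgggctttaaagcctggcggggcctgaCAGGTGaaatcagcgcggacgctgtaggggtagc
Prkag1, chr7:131859485-131859734, minus strand: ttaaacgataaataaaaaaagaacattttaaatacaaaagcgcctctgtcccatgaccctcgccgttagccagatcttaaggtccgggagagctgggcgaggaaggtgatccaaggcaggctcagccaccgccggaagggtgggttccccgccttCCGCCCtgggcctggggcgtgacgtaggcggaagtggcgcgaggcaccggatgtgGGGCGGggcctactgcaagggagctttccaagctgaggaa
Prkab1, chr12:46248845-46248970, plus strand: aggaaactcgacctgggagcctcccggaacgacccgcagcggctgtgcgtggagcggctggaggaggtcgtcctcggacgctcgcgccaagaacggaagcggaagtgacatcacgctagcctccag
The internal Srebf1 window held 2 GC boxes, 2 CCAAT boxes and 3 E-boxes in 250 bases, and the distal one 2 GC boxes, 1 CCAAT box and 0 E-boxes. Prkag1 held 2 GC boxes and neither of the other motifs. The 126 bases of Prkab1 held none of these motifs. Among 33469 RefSeq windows of 250 bases, 30.5% held a GC box, 34% a CCAAT box and 65.5% an E-box. In the 126 bases of the same windows that lie farthest from the listed start, the shares were 13.4%, 17.9% and 42.5%. The Prkab1 run has this position before its listed start, but it ends just before its annotated gene. An exact match to TCACNCCAC, a consensus form of the sterol regulatory element that SREBP factors are known to bind, was in none of the 4 runs. The same letters were in 0.974% of all 250-base windows. Other forms of the element were not searched for, so a site that SREBP binds may still lie in these runs. These matches describe the letters only.

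Signal intensity is the authors' MAS5 value on a linear scale, set here to a common array level. It is comparable between arrays for a given probe set but not between genes. Differences are log2 fold changes from limma with their standard error (SE), fitted to all probe sets and all 8 arrays, and a change was called where the Benjamini-Hochberg adjusted p over 5244 probe sets was under 0.05. For a single gene, 3 pools against 3, or 2 against 3, cannot go below an exact permutation p of 0.1, so a call borrows the spread of other probe sets. The median array signal was 37.1 to 42.4, and pairs of arrays correlated at 0.949 to 0.963 within groups and 0.913 to 0.945 between groups. Control pool 3 stood apart on the first principal component, at -29.95 against -14.25 and -16.3 in the other control pools. Over the tested probe sets the middle log2 fold change was -0.08 for unloaded soleus set against control, -0.05 for walked set against unloaded and -0.11 for walked set against control. Slow fibre genes were read beside the tissue label: the slow myosin heavy chain Myh7 read 5146 to 8004 over the 8 arrays and the slow troponin Tnni1 3126 to 5446. Of the listed markers, 6 of 9 slow and 10 of 11 fast ones passed the filter. These levels therefore do not tell soleus from another muscle. Because whole muscle was measured, fewer cells of a type and less RNA per cell cannot be told apart.

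**Figure D1:**
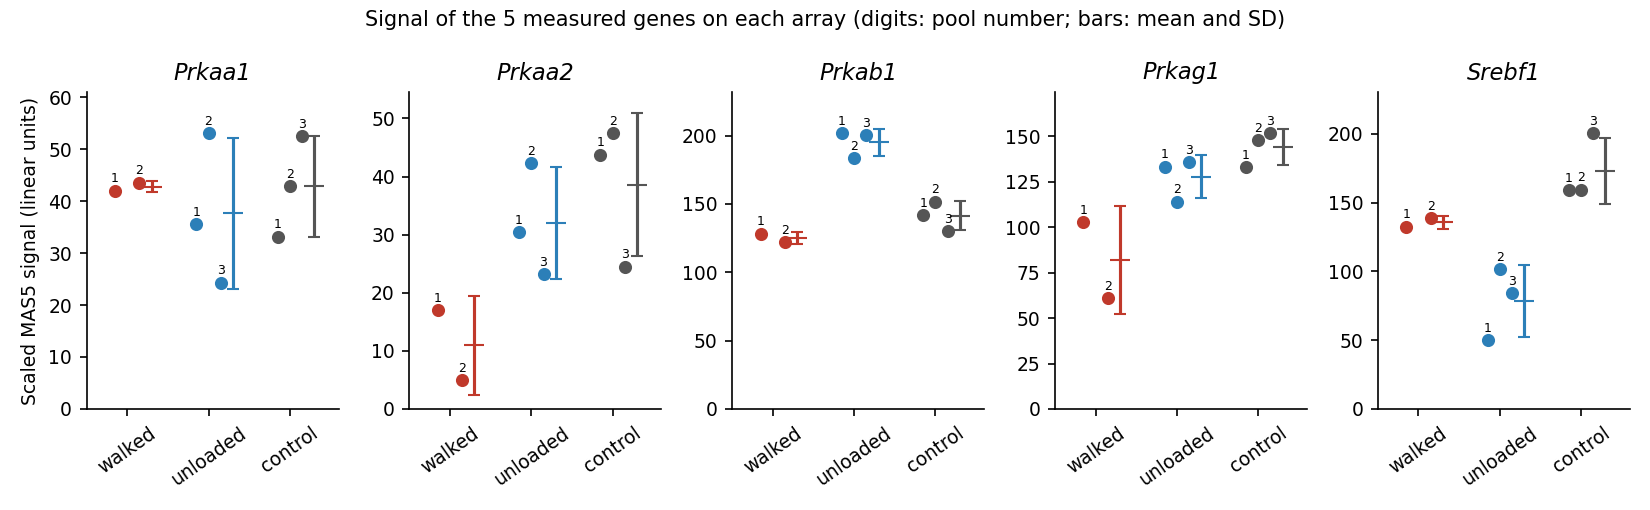
Scaled MAS5 signal (linear, y axis from 0) of each measured gene on each of the 8 arrays, by group; digits give the pool number and bars the mean and SD. The 3 unloaded pools sit above all others for Prkab1 (183.6 to 201.7) and below all others for Srebf1 (50.06 to 101.5).

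The alpha subunits carry the kinase activity. Prkaa1, which encodes the more widely expressed alpha-1 form, read 42.03 and 43.57 in the walked pools. It read 35.57, 53.03 and 24.29 in the unloaded pools and 33.18, 42.84 and 52.51 in the control pools. The groups overlapped throughout, and the unloaded pools alone spanned a wider range than any difference between group means. The log2 fold change was -0.24 ± 0.33 (SE; 95% interval -0.96 to 0.49) in unloaded against control and 0.26 ± 0.37 (-0.56 to 1.07) in walked against unloaded. In walked against control it was 0.02 ± 0.37 (-0.79 to 0.84), with limma adjusted p-values of 0.742, 0.784 and 0.978 for the 3 comparisons. With intervals this wide, an equal level in the 3 groups is not shown. The gene table lists 2 pseudogenes of Prkaa1, and whether the probe set also reads them is not known from the files.

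Prkaa2 encodes alpha-2, the form that predominates in skeletal muscle. It read 17.01 and 4.908 in the walked pools, against 30.48, 42.32 and 23.19 in the unloaded pools and 43.77, 47.43 and 24.5 in the control pools. Both walked pools were below all other pools, while unloaded and control pools overlapped. The log2 fold change was -2.02 ± 0.60 in walked against control and -1.76 ± 0.60 in walked against unloaded, neither called (limma adjusted p = 0.0588 and 0.145). In unloaded against control it was -0.26 ± 0.54 (95% interval -1.43 to 0.92, adjusted p = 0.835). The sizes are imprecise. The mean over all arrays, 29.2, was close to the filter of 25.77, the walked mean of 10.96 was under it, and the probe set passed only through the unloaded and control pools, where it is higher. In addition walked pool 2 was just above the floor of 4.10. Without walked pool 2 the values were -1.12 against control and -0.87 against unloaded. Without walked pool 1 they were -2.92 and -2.66. Because of the filter and the floor, the differences of walked soleus are read as levels and support no call.

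The beta subunit holds the trimer together and carries a glycogen-binding module. Prkab1 read 128.3 and 121.9 in the walked pools, against 201.7, 183.6 and 200.2 in the unloaded pools. The control pools read 142, 151.7 and 130.3. The unloaded pools were above all other pools, and the walked pools were just below the lowest control pool. Prkab1 averaged 125.1 ± 4.52 in walked soleus (SD, n = 2), 195.2 ± 10.1 in unloaded soleus and 141.3 ± 10.7 in control soleus (SD, n = 3 each). It fell by 0.64 ± 0.16 on the log2 scale in walked against unloaded soleus (limma adjusted p = 0.0486), a 1.56-fold difference. In unloaded against control soleus the log2 fold change of 0.47 ± 0.14 was not called (adjusted p = 0.0787), and the fit without a filter gave 0.0444. The walked and control groups differed by -0.17 ± 0.16 (95% interval -0.53 to 0.18, adjusted p = 0.553). The call in walked against unloaded was marginal: 7 of 8 fits that left out 1 array gave an adjusted p of 0.0709 to 0.258, with log2 fold changes of -0.68 to -0.60, and only the fit without control pool 3 kept it (0.0423).

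Fast fibre markers were read beside Prkab1, and 2 of 10 were called in the comparison in which it was called. The summed signal of 10 measured markers of 11 listed was 11980 to 12570 in walked pools, 15100 to 17360 in unloaded pools and 12020 to 15220 in control pools. Such sums, here and below, weight each marker by the brightness of its probe set. Of the 10, 9 lay below 0 in walked against unloaded, and the fast troponin Tnni2 (-0.83) and the fast myosin Myh2 (-0.64) were called lower. In unloaded against control 7 of the 10 lay above 0 and 0 were called by limma (4 at an unadjusted p under 0.05). In the sum, unloaded and control pools overlapped. Single markers differed in this. Tnnt3 read 3156 to 3796 in unloaded and 2471 to 2997 in control pools, without overlap. Casq1 read 1898 to 2336 and 2277 to 2390, with overlap. The part of fibre composition in the Prkab1 values was not tested.

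The gamma subunit senses the nucleotides. Prkag1, the widely expressed gamma form, read 102.9 and 61.1 in the walked pools, against 133.3, 114.1 and 135.6 in the unloaded pools and 132.9, 147.8 and 151.6 in the control pools. Both walked pools were below every other pool, but they were far apart from each other, and unloaded and control pools overlapped. The means were 81.99 ± 29.5 in walked (SD, n = 2), 127.6 ± 11.8 in unloaded and 144.1 ± 9.89 in control soleus (SD, n = 3 each). Prkag1 fell by 0.86 ± 0.23 on the log2 scale in walked against control soleus (limma adjusted p = 0.039), a 1.81-fold difference. In walked against unloaded the log2 fold change was -0.68 ± 0.23 (adjusted p = 0.136), and in unloaded against control -0.18 ± 0.20 (95% interval -0.62 to 0.27, adjusted p = 0.677). The size rests on walked pool 2: the difference from control was -0.48 without it (adjusted p = 0.312) and -1.24 without walked pool 1 (0.0268). The call was lost in 5 of 8 fits that left out 1 array. The difference from unloaded soleus was likewise -0.31 without walked pool 2 (0.645) and -1.06 without walked pool 1, where it was called (limma adjusted p = 0.0451).

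Markers of fibre type and leukocytes were read in the comparison in which Prkag1 was called. Summed over 6 slow fibre markers, signal was 28220 and 31060 in walked pools against 20560 to 23110 in control pools. Of these 6, 5 lay above 0, with Myl3 (0.58), Myl2 (0.60) and Tnni1 (0.58) called higher, and 1 lay below (-0.47). Of 10 fast fibre markers, 4 lay above 0 and 6 below, with Casq1 (-0.48) called lower. The fast sum was 12570 and 11980 in walked pools against 12020 to 15220 in control pools. Summed over 8 measured leukocyte markers of 13 listed, signal was 1081 and 1014 in walked pools against 1284 to 1319 in control pools. Among the leukocyte markers RT1-Da and Cd74 were called lower. Of these 8, 5 lay below 0 and 3 above, among them Cd48 (0.92) and Cd4 (0.43), neither called, and their median of -0.105 was close to that of all tested probe sets (-0.11). Their part in the Prkag1 values was not tested.

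Srebf1 read 132.5 and 138.8 in the walked pools and 50.06, 101.5 and 84.18 in the unloaded pools. The control pools read 159.2, 159.4 and 200.4. All unloaded pools were below all walked pools, which in turn were below all control pools. The means were 135.7 ± 4.48 in walked (SD, n = 2), 78.6 ± 26.2 in unloaded and 173 ± 23.8 in control soleus (SD, n = 3 each). Srebf1 fell by 1.19 ± 0.24 on the log2 scale in unloaded against control soleus (95% interval -1.72 to -0.66, limma adjusted p = 0.0125), a 2.28-fold difference. Of all tested probe sets 3.57% had a larger difference there. In walked against unloaded soleus the log2 fold change was 0.85 ± 0.27 (95% interval 0.25 to 1.44), or 80% higher, and was not called (adjusted p = 0.124). It was 0.55 without unloaded pool 1, the lowest pool, and 1.06 without unloaded pool 2, again without a call. In walked against control it was -0.34 ± 0.27 (-0.94 to 0.25, adjusted p = 0.482). The neighbours in the order control, walked, unloaded were therefore not told apart by a call, while its ends were. A missing call with so few pools does not show equal levels. The call in unloaded against control held in 8 of 8 fits that left out 1 array, with log2 fold changes of -1.41 to -0.90 and adjusted p-values of 0.00988 to 0.0389. The smallest of these differences came without unloaded pool 1. The unfiltered fit gave an adjusted p of 0.0876.

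Srebf1 is also expressed in fat cells, and adipocyte markers were read beside it. Of 8 listed, 5 were on the array and 3 passed the filter, with a summed signal of 1124 to 1430 in walked, 1167 to 1437 in unloaded and 1192 to 1500 in control pools. The 3 groups overlapped in this sum. The leptin gene Lep, at 730.7 to 1126, made up most of the sum. That is a share of signal and not of RNA, as signal is not comparable between genes. In unloaded against control, where Srebf1 fell, the 3 markers did not move one way: Fabp4, a fatty acid carrier of adipocytes and endothelium, rose (1.52), while Cfd (-0.43) and Lep (-0.28) were below 0 and not called. The part of fat cells in the Srebf1 values was not tested. Plin1, a coat protein of fat droplets, was under the filter at 3.997 to 46.63.

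Of the 5 members, 1 was called in unloaded against control, where 7.30% of all tested probe sets were called. Walked soleus had 1 called against unloaded (background 4.20%) and 1 against control (background 9.08%). The called gene differed each time. Groups did not overlap for 2 of the 5 in unloaded against control, where this held for 26.4% of all tested probe sets. The count was 4 of 5 in walked against unloaded (35.3%) and 4 of 5 in walked against control (43.0%). Both of these counts include Prkaa2, which passed the filter only through the unloaded and control pools. Each pair of comparisons shares the arrays of 1 group, so opposite signs between them are not independent.

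**Figure D2:**
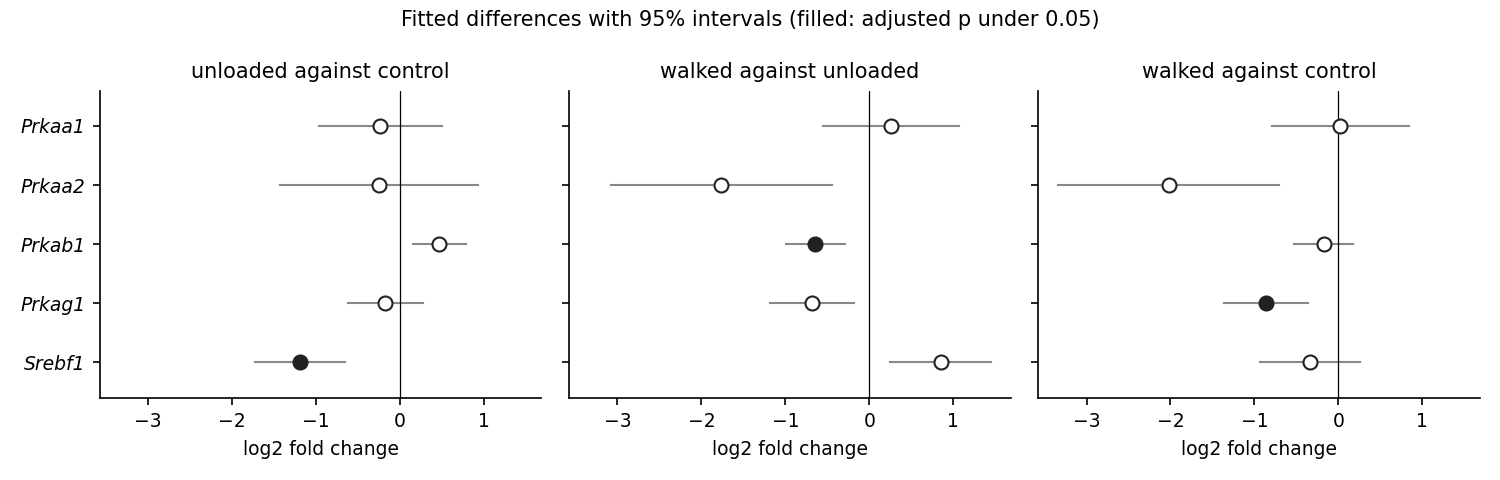
Log2 fold change of each gene in the 3 comparisons with 95% intervals from limma; filled points had an adjusted p under 0.05. Srebf1 is filled in unloaded against control (-1.19), Prkab1 in walked against unloaded (-0.64) and Prkag1 in walked against control (-0.86), and the widest intervals belong to Prkaa2.

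**Figure D3:**
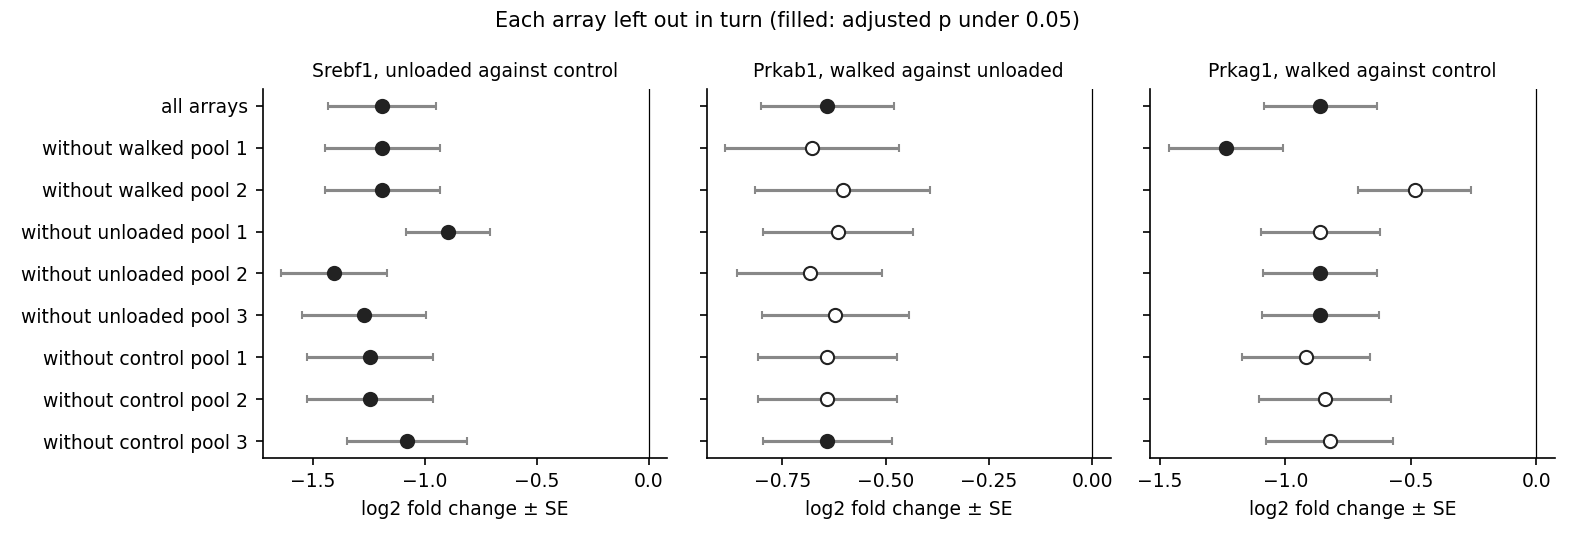
The 3 called differences refitted without each array in turn, as log2 fold change ± SE; filled points had an adjusted p under 0.05. All 8 refits of Srebf1 are filled, against 1 of 8 for Prkab1 and 3 of 8 for Prkag1.

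Genes around these members were read from lists of AMP kinase regulators and substrates, adenylate metabolism, SREBP processing, targets and regulators. Of 137 listed genes 57 were tested. With unloading 1 rose and 1 fell. Walked soleus had 2 higher and 2 lower than unloaded soleus, and 2 higher and 1 lower than control soleus. That is 3.51%, 7.02% and 5.26% of the list, against 6.21%, 4.09% and 8.37% of all 3154 genes by their brightest probe set. The list medians were -0.06, 0.01 and -0.05, and those of all genes -0.08, -0.05 and -0.11.

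On the AMP kinase side, the upstream kinases were poorly covered: Camkk1, a calcium-dependent kinase of AMP kinase, had log2 fold changes of -0.48 ± 0.33, 0.37 ± 0.37 and -0.10 ± 0.37 in the 3 comparisons in that order. Camkk2 was under the filter, and Prkag2, Prkag3 and Stk11 are not analysed here. Of 8 measured substrates of AMP kinase, 1 was called. Eef2k, the kinase that slows translation elongation, read 59.84 and 55.39 in walked pools against 125.4, 102.3 and 120 in unloaded pools. All walked pools were below all unloaded pools. It fell by 1.004 ± 0.22 on the log2 scale (limma adjusted p = 0.0293), while its other probe set had -0.28, and the mean of both was not called. The call was also lost in 4 of 8 fits that left out 1 array (adjusted p up to 0.176). The carboxylases that AMP kinase phosphorylates, Acaca and Acacb, were not called: in unloaded against control they had -0.41 ± 0.36 and 0.57 ± 0.38, and in walked against unloaded 0.80 ± 0.40 and 0.22 ± 0.42.

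Of 10 measured genes of adenylate and phosphocreatine metabolism, Ampd3 was called in both steps. Ampd3 encodes an AMP deaminase, which removes AMP, the activating ligand of AMP kinase. It read 256.8 and 203.5 in walked pools, 123.9, 104.6 and 135.2 in unloaded pools, and 188, 287.3 and 216.9 in control pools. The unloaded pools were below all others. It fell by 0.91 ± 0.19 in unloaded against control (limma adjusted p = 0.0143), and its log2 fold change was 0.92 ± 0.21 in walked against unloaded (adjusted p = 0.0357). The first call was lost in 2 of 8 and the second in 5 of 8 fits that left out 1 array. Walked and control pools overlapped and differed by 0.01 ± 0.21 (adjusted p = 0.985). Ampd1, another AMP deaminase gene, was not called in either step. It had 0.05 ± 0.16 in unloaded against control and 0.34 ± 0.18 in walked against unloaded (limma adjusted p = 0.885 and 0.366). Its other probe set had 0.53 and 0.30, also without a call. Ckm, the muscle creatine kinase, averaged 4713 ± 576 in walked (SD, n = 2) and 2521 ± 631 in control soleus (SD, n = 3), a rise of 0.93 ± 0.24 (limma adjusted p = 0.0361). It was not called without control pool 2, control pool 3 or either walked pool (adjusted p up to 0.218).

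On the SREBP side, 0 of 11 lipogenic targets were called by limma in unloaded against control (1 at an unadjusted p under 0.05), the comparison in which Srebf1 itself fell. Fatty acid synthase, Fasn, averaged 99.22 ± 28.4 in unloaded and 98.64 ± 9.76 in control soleus (SD, n = 3 each), a log2 fold change of -0.03 ± 0.21. The list median was -0.03. In walked against unloaded 1 rose and 1 fell, Hk2 and Gpam. Gpam encodes the acyltransferase that opens triglyceride synthesis. It read 322.6 and 263.3 in walked pools, against 552, 508.6 and 542.4 in unloaded pools and 462.7, 432.3 and 431.1 in control pools. All walked pools were below all control pools, which were below all unloaded pools. It fell by 0.87 ± 0.15 in walked against unloaded (limma adjusted p = 0.00449) and by 0.60 ± 0.15 in walked against control (0.0298), and its log2 fold change was 0.27 ± 0.13 in unloaded against control (0.253). Its order of groups thus differed from that of Srebf1. Of its other 4 probe sets, 2 rose in unloaded against control (0.73 and 0.67) and 2 fell in walked against unloaded (-0.99 and -0.91). Between walked and control soleus these 4 had -0.49 to 0.05 and 0 were called by limma (1 at an unadjusted p under 0.05), and the call on the brightest was lost in 4 of 8 fits that left out 1 array (adjusted p up to 0.222), against 1 of 8 in walked against unloaded. Hk2, a hexokinase, read 488 and 670 in walked pools against 271, 262.5 and 223.2 in unloaded pools, with no overlap, and rose by 1.19 ± 0.23 (limma adjusted p = 0.0135). Its rise in walked against control (0.83, adjusted p = 0.0497) was lost in 8 of 8 fits that left out 1 array, while its other probe set had 3.17 and 1.93 in these comparisons.

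Of 9 measured cholesterol synthesis genes, Fdft1, the squalene synthase, rose in unloaded against control (0.63 ± 0.15, limma adjusted p = 0.0234). It read 413.6, 405.7 and 432.5 in unloaded pools against 256.2, 322.6 and 235.6 in control pools, and its other 3 probe sets had 0.30 to 0.75 without a call. Its call was lost in 5 of 8 fits that left out 1 array, and the mean over its probe sets was not called. Insig1, which holds SREBP in the endoplasmic reticulum, had 0.21 ± 0.22, -0.10 ± 0.25 and 0.11 ± 0.25 in the 3 comparisons, and its other probe set had 0.51, 0.37 and 0.88, without a call. Of the 5 LXR and RXR receptors, the activators of Srebf1 transcription in liver, 0 were called by limma in any comparison (1 had an unadjusted p under 0.05 in each comparison with walked soleus). Of 12 measured genes of the insulin signal 0 were called likewise (1, 1 and 2 at an unadjusted p under 0.05), counting the brightest probe set of each. Irs2, an insulin receptor substrate, had 0.58 in walked against unloaded on that probe set. Another Irs2 probe set read 79.56 and 103.2 in walked pools, against 6.898 to 7.904 in unloaded and 13.48 to 15 in control pools. It passed the filter only through the walked pools, so its difference is given as levels, without a test. Scd, the stearoyl desaturase, was under the filter, and Srebf2 and Scap are not analysed here.

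**Figure D4:**
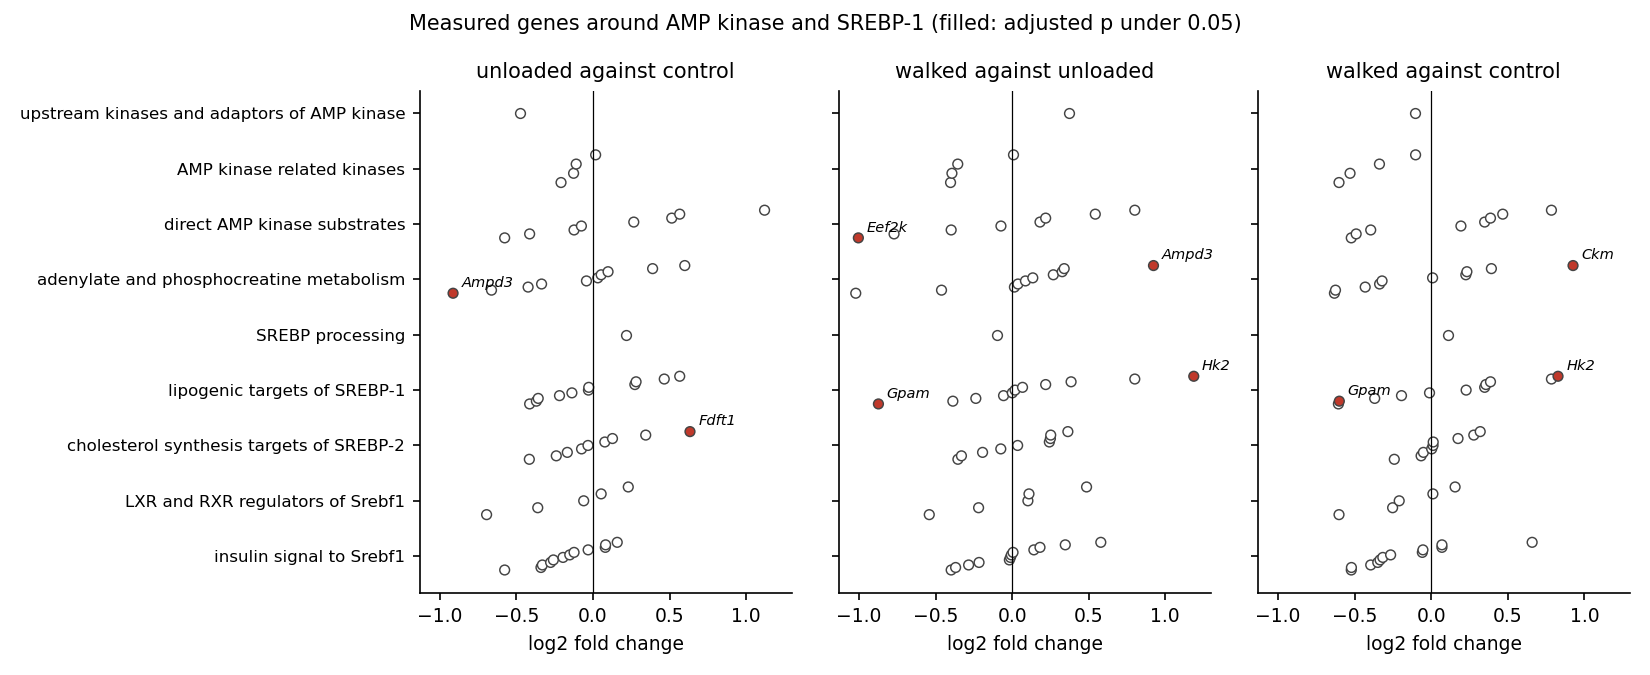
Log2 fold change (x axis) of every tested gene of each list, by its brightest probe set, in the 3 comparisons; filled points had an adjusted p under 0.05 and are named. In unloaded against control Ampd3 and Fdft1 are filled, and the lipogenic targets of SREBP-1 lie between -0.41 and 0.57.

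The genes most like each member were found by the root mean square difference of log2 signal, each gene centred on its mean over the 8 arrays. They were picked for this likeness, so no test applies. For Srebf1 they were Akr1d1 (0.23), the cyclin Ccnd1 (0.26), Dnase1 (0.26), the endoplasmic reticulum protein Erp29 (0.27) and the pyruvate dehydrogenase phosphatase Pdp2 (0.29), where the median over all genes was 0.64. For Prkab1 they were Zfp148 (0.11), the mitochondrial protease Oma1 (0.11), the fast troponin Tnnt3 (0.12), the protein kinase A subunit Prkacb (0.12) and Chrm1 (0.12), with a median of 0.40. For Prkag1 they were the peroxisomal import receptor Pex5 (0.10), the transcription factor Usf1 (0.11), the tissue factor gene F3 (0.14), RT1-M3-1 (0.14) and Sdc2 (0.14), with a median of 0.47. All 5 neighbours of Prkag1 were lowest in walked pool 2, as Prkag1 was. For Prkaa1 the nearest was Mrpl38 (0.11) and for Prkaa2 Slc22a13 (0.37). No member was among the 5 nearest genes of another: the closest pair was Prkab1 and Prkag1 (0.37), and the farthest Prkaa2 and Srebf1 (1.20).

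**Figure D5:**
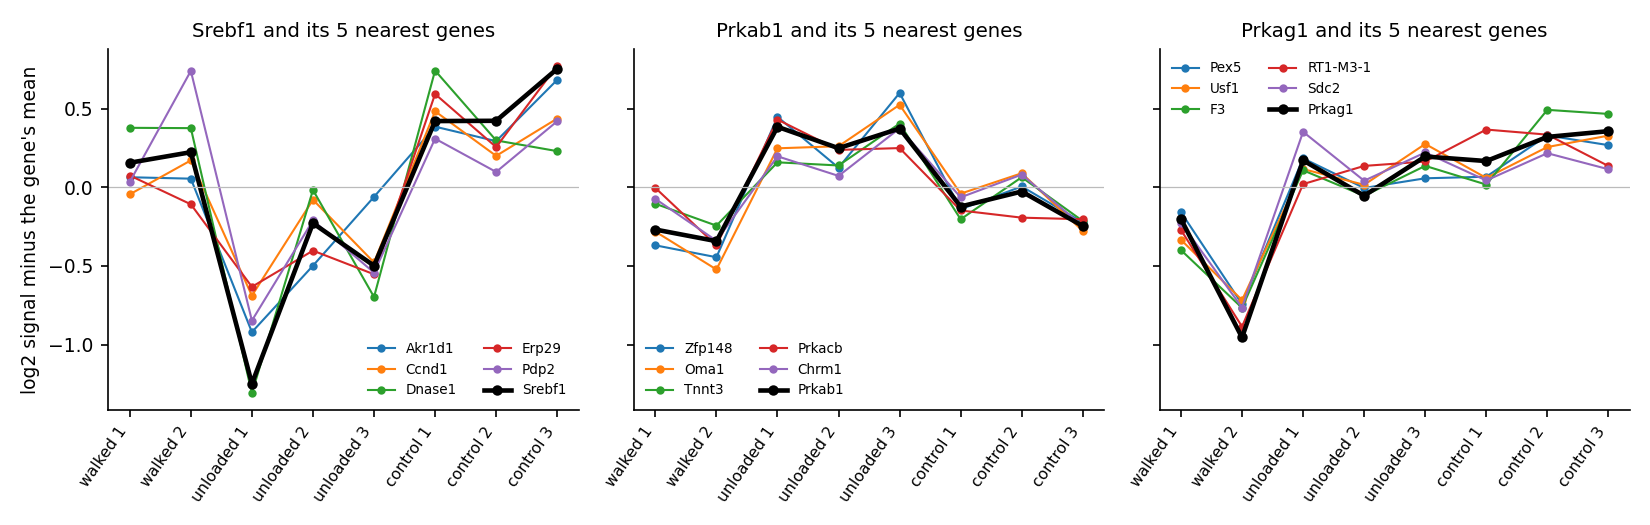
Log2 signal minus each gene's own mean on the 8 arrays for Srebf1, Prkab1 and Prkag1 (thick black lines) and the 5 genes nearest to each (thin lines). Srebf1 and its 5 neighbours are all lowest in unloaded pool 1, Prkab1 and its neighbours have their highest mean in the unloaded pools, and Prkag1 and its neighbours are lowest in walked pool 2.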

How the data were processed

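The deposited file holds signal intensity per probe set for 8 Affymetrix arrays, made by the authors with MAS5 per the submitters' processing notes; neither version nor scaling target is stated there or in the labels. RNA was Trizol-extracted and 10 microg was labelled with biotin, per the labels. The deposited intensity had trimmed means (2% off each end) of 148.4 to 148.8. Each array was set to their mean, values under the 10th percentile (4.10) were raised to it, and log2 was taken. Probe sets under the 40th percentile of mean signal (25.77) were left out, which left 5244 of 8740. Groups came from the sample titles. limma 3.58.1 in R 4.3.3 (lmFit, contrasts.fit, eBayes with a trend, two-sided) was fitted to 3 groups, with 5 residual and 6.00 prior degrees of freedom, and was tested on simulated data. The number of arrays limits the precision. Symbols came from the platform annotation through Entrez IDs: 7006 probe sets had 1 symbol, 308 several and 1426 none. Genes with several probe sets are given by the brightest. RefSeq windows with bases before the annotated gene were had for 4 of the 6 genes.

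The members and lists were chosen with earlier results of these data known. Named are all members, called genes of the lists, 12 fixed pathway genes where measured, slow fibre markers and the 5 nearest genes; other names were added after their values were seen. Alternatives were quantile normalization, no rescaling, other floors and filters, no trend, 2-group fits, pool number as a block, testing against a fold change of 1.5, leaving out each array, and probe set means. A fit on probe sets with plain names was added after seeing the data. The labels do not say whether same-numbered pools are related. Deviations of same-numbered arrays from their group means correlated at -0.07 to 0.05, which shows no pairing but cannot exclude it. The 2 walked arrays deviate by equal and opposite amounts, so their correlations say little.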

Additional observations from a re-analysis of the deposited data

How the results depend on the processing

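Over 15 member results and 294 alternative values, 259 kept direction and side of the threshold, 27 lost the call, 3 gained one and 5 changed sign. Called probe sets in unloaded against control (383) numbered 228 without a filter, 243 without a trend, 55 when tested against a fold change of 1.5 and 230 to 404 with 1 array left out. In walked against unloaded (220) they numbered 80 against a fold change of 1.5 and 120 to 263 with 1 array left out. In walked against control (476) they numbered 216 without a filter, 211 without a trend, 251 with the replicate block, 43 against a fold change of 1.5 and 105 to 503 with 1 array left out, the fewest without walked pool 2.

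Srebf1 in unloaded against control lost its call without a filter (-1.19, limma adjusted p = 0.0876), where Prkab1 was called instead, and when tested against a fold change of 1.5 (-1.19, adjusted p = 0.516), which left 0 of the 5 members called. Prkab1 in walked against unloaded lost its call, with 0 members called, under quantile normalization (-0.622), without a trend (-0.641), with only the 2 groups (-0.641), with the replicate block (-0.66) and against a fold change of 1.5 (-0.641), and on plain-named probe sets (-0.602). Prkag1 in walked against control lost its call under the same settings (-0.778, -0.86, -0.86, -0.818 and -0.86, with 0 members called; -0.814 on plain-named probe sets) and without a filter (-0.86, 0 members called). The 1.5-fold test asks a harder question by construction; otherwise the cause was not tested. With 1 array left out, Srebf1 was -1.405 to -0.895, Prkab1 -0.684 to -0.604 and Prkag1 -1.236 to -0.484. Where a walked array is left out, the lone one is assumed to vary like the other groups.

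Prkaa1, never called, changed sign: with the replicate block it was -0.037 in walked against control, and with 1 array left out it was -0.518 to 0.045 in unloaded against control, -0.021 to 0.542 in walked against unloaded and -0.148 to 0.183 in walked against control. No pairing by pool number is stated in the labels, so the block tests only a shared number. Prkaa1 and Prkaa2 had no value under the 60th percentile filter, which removes them. Low signal limits Prkaa2 most: one walked pool lay close to the floor.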
